A study of Gallus gallus with 6 samples.

Results

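The vascular endothelial growth factor (VEGF) receptor genes KDR, FLT1 and FLT4, the neuropilin genes NRP1 and NRP2 and the ligand genes VEGFA and VEGFC were followed in cells sorted from gastrula-stage chick embryos. They were chosen by symbol, as every probe set that the array annotation assigns to 1 of these 7 genes and to no other gene. All 7 genes were on the array, with 20 of its 38439 probe sets, and they are 7 of the 13051 genes that it measures. One further probe set, shared between CSF1R and FLT4 in the annotation, was left out. It had a log2 fold change of -0.15 and was not called (limma adjusted p = 0.60).

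Embryos had been co-electroporated at stage HH3 with Hb-eGFP, in which eGFP is driven by a minimal promoter of human beta-globin joined to the fragment from -255 to -204 bp of the regulatory region of chick Cerberus, and with pCAGGS-RFP, in which a ubiquitous promoter drives RFP. They were collected at HH5-6 in 3 pools of 4 embryos and dissociated, and FACS gave 3 samples of eGFP-positive cells (Hb-eGFP+) and 3 samples of eGFP-negative/RFP-positive cells (RFP+ control). Both populations came from embryos that received both plasmids, and the RFP+ control holds electroporated cells of any tissue that had no eGFP fluorescence, so it is a mixture and not one cell type. RNA was read on 1-colour Affymetrix Chicken Genome Arrays, 1 array per sample, as a signal intensity on a linear scale.

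VEGFs are secreted ligands that bind receptor tyrosine kinases on endothelial cells and on the mesodermal cells that give rise to blood and endothelium. In birds as in mice, KDR (VEGFR-2) is the main signalling receptor for VEGFA and an early marker of the mesoderm that forms blood and vessels. FLT1 (VEGFR-1) binds VEGFA tightly but has weak kinase activity, and in mice a soluble form acts as a trap for the ligand. FLT4 (VEGFR-3) is the receptor of VEGFC and VEGFD and is best known for lymphatic growth, although in the early mouse embryo it is found in blood vessel endothelium as well. Neuropilins are co-receptors with short cytoplasmic tails. They bind VEGFs together with the kinase receptors, and class 3 semaphorins together with plexins.

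The sort was checked first. GFP had a signal of 17083 ± 229 in the Hb-eGFP+ arrays and 926 ± 80.5 in the RFP+ control arrays (SD, n = 3 each), a ratio of 18.5. In the RFP+ control arrays GFP still lay far above the 90th percentile of 56 other reporter probe sets (80.2 to 88.5). The control was therefore not free of GFP signal, and the effect of this on the changes below was not tested. Median signals of the 6 arrays lay between 87.7 and 91.1, and Spearman correlations were 0.985 to 0.991 among the Hb-eGFP+ arrays, 0.983 to 0.987 among the RFP+ control arrays and 0.964 to 0.979 between them, so that no array stood apart from its group. Markers were tested by limma over genes (adjusted p under 0.05), which called 9.19% of all genes higher and 10.7% lower. Of 8 hemangioblast and blood progenitor markers, 7 passed the test as higher in Hb-eGFP+ cells and none as lower. The 8 had a summed signal of 11188 to 11996 in Hb-eGFP+ arrays and 3027 to 3316 in RFP+ control arrays, most of it from TAL1 and LMO2. Their median log2 fold change was 1.39. Among the 7, MYB was low in both groups (48.0 ± 2.29 and 38.8 ± 2.99) and RUNX1 in RFP+ control (36.6 ± 0.897). GATA2 was the one not called, with a mean signal below the median of all probe sets (74.2 ± 16.0 in Hb-eGFP+ and 64.9 ± 6.81 in RFP+ control). Of 13 endothelial markers, 7 were higher and none was lower (summed signal 14697 to 16038 in Hb-eGFP+ and 6145 to 6627 in RFP+ control), while PECAM1, ERG, TIE1, ESAM, ROBO4 and VWF were not called. Markers of other tissues were lower in Hb-eGFP+ cells, with 6 of 7 for neuroectoderm (summed signal 1256 to 1428 in Hb-eGFP+ and 9912 to 10000.8 in RFP+ control), 4 of 6 for paraxial mesoderm (1528 to 1732 and 9083 to 9923), 4 of 6 for endoderm (8322 to 9122 and 15919.8 to 16972), 4 of 5 for non-neural ectoderm (2284 to 2511 and 6347 to 7008) and 5 of 6 for primitive streak (5791 to 6062 and 9201 to 9806), and none of these was higher. Of 8 markers of cardiac and lateral plate mesoderm and 5 of smooth muscle and mural cells, 2 of each list were lower and none was higher (957 to 1023 and 1563 to 1640.3, and 735 to 769 and 1033 to 1094). Of 7 primitive erythroid markers 3 were higher and 1 lower (11015 to 11142 and 9802 to 10107). In a bulk sample, fewer cells of a type and less RNA per cell cannot be told apart, and this holds for every difference below. The part of this difference in tissue makeup in the changes of the VEGF genes was not tested.

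Of the 20 probe sets, 4 were called higher in Hb-eGFP+ cells (KDR, FLT1 by a pair of probe sets, and FLT4) and 1 was called lower (VEGFC), by limma with Benjamini-Hochberg adjustment over all probe sets and a threshold of 0.05. Of all probe sets on the array, 4.02% were called higher and 5.05% lower, 9.07% in either direction. Of the 20 probe sets, 11 had a mean signal above the median of all probe sets. All 5 calls lay among these 11 (4 higher, 1 lower, 6 not called), against 6.36% higher, 7.88% lower and 14.2% either way of all probe sets above the median. The other 9 had signals between 6.95 and 70.3 and lay, in every array, below the 90th percentile of 56 reporter probe sets other than GFP, so they read near the background of the array. None of them was called, and their log2 fold changes ran from -0.28 to 0.33. Groups did not overlap in 5 probe sets that were higher in Hb-eGFP+ (KDR, FLT1 by a pair, FLT4 and VEGFA) and in 2 that were lower (NRP1 and VEGFC), against 16.0% and 14.1% of all probe sets.

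**Figure D1:**
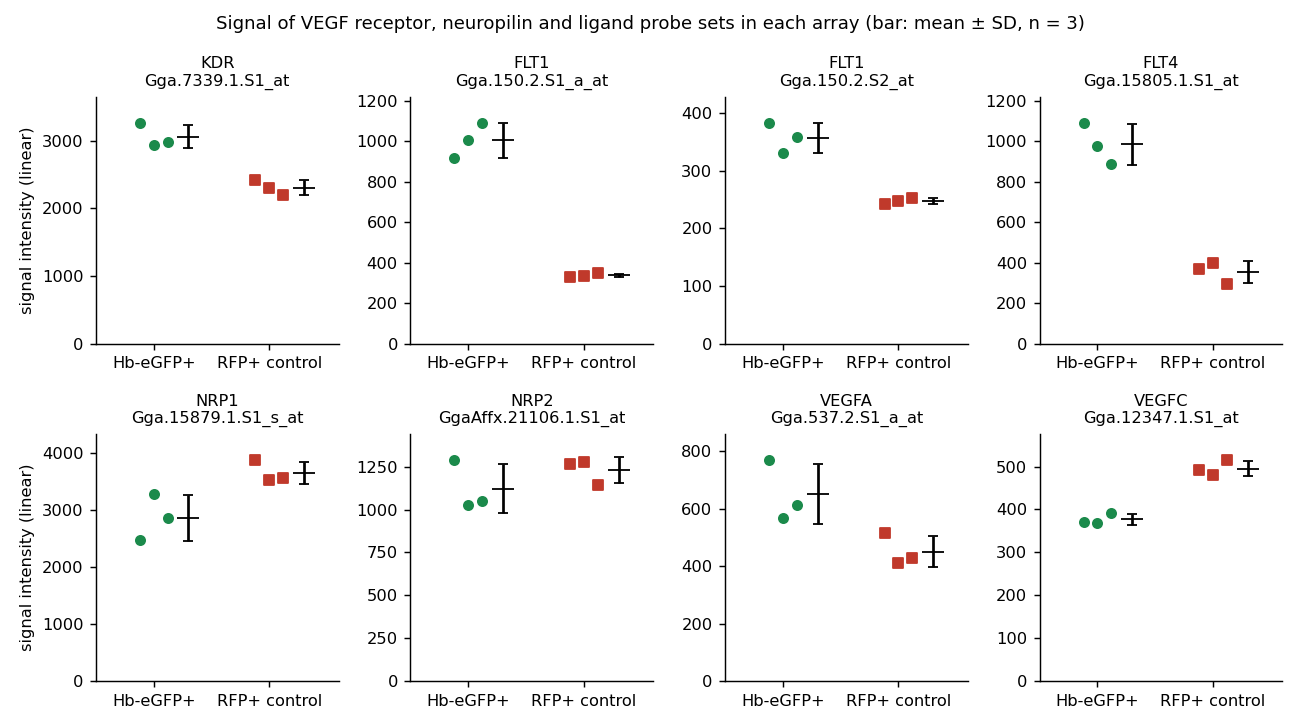
Linear signal intensity in each of the 3 Hb-eGFP+ arrays (circles) and 3 RFP+ control arrays (squares) for the brightest probe set of each gene and the further called probe set of FLT1, with the mean and SD beside the points; each axis starts at 0. FLT1 and FLT4 had means of 1005 and 986 in Hb-eGFP+ cells and 336 and 354 in RFP+ control cells, whereas the NRP2 arrays of both groups overlapped.

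FLT1 had the largest change of the 7 genes. Its brightest probe set read 918, 1008 and 1089 in the 3 Hb-eGFP+ arrays, against 328, 334 and 347 in the 3 RFP+ control arrays. Every Hb-eGFP+ array was more than 2-fold above every RFP+ control array, and the control arrays lay close together. Means were 1005 ± 85.9 and 336 ± 9.65 (SD, n = 3 each), a ratio of 2.99 and a log2 fold change of 1.58 (SE 0.09, limma adjusted p = 7.4e-05), which ranked 49 among the 38439 probe sets ordered by log2 fold change from the highest. A further FLT1 probe set also rose, with 382, 330 and 358 in Hb-eGFP+ arrays against 242, 247 and 253 in RFP+ control arrays. Its log2 fold change was 0.53 (SE 0.08, adjusted p = 0.0087). The groups did not overlap there either, but the change was smaller, and the log2 difference between these FLT1 changes was 1.05 (SE 0.12). This was one of 3 comparisons within a gene that were chosen after the values had been seen, and its exact permutation p of 0.1 (two-sided, 0.1 after adjustment over the 3) is the smallest that 3 arrays against 3 can give. The last FLT1 probe set was dim, with 29.4 ± 5.8 in Hb-eGFP+ and 23.2 ± 2.57 in RFP+ control (log2 fold change 0.33, adjusted p = 0.26).

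FLT4 was close behind. Its brightest probe set read 1090.2, 979 and 888 in Hb-eGFP+ arrays, against 368, 399.8 and 294 in RFP+ control arrays. The lowest Hb-eGFP+ array was again more than 2-fold above the highest control array. Means were 986 ± 101 and 354 ± 54.1 (SD, n = 3 each), a ratio of 2.78 and a log2 fold change of 1.48 (SE 0.14, adjusted p = 0.00058), rank 62 by log2 fold change. None of the other 4 FLT4 probe sets was called, so the FLT4 call rests on 1 probe set. All but 1 of these 4 were dim, with group means of 11.4 to 50.3 and log2 fold changes of -0.22, -0.13 and 0.09. The 1 above the median signal of the array had 109 ± 6.16 in Hb-eGFP+ and 106 ± 11.2 in RFP+ control. Its log2 fold change was 0.04, with a 95% interval of -0.19 to 0.28 that leaves out the change seen with the brightest probe set. The name of this dimmer probe set differs only in its suffix from that of the probe set left out as shared between CSF1R and FLT4. Whether it reads FLT4 alone was not tested. The log2 difference between the changes of these FLT4 probe sets was 1.44 (SE 0.22, exact permutation p = 0.1, also chosen after the values had been seen). FLT1 and FLT4 are also the only members with a lower 90% bound of the ratio above 1.7 (lower bounds 2.73 and 2.35). The study applied this threshold to a bound from dChip. The bound here was computed anew from the spread between arrays, so it need not call the same probe sets. Of all probe sets, 0.718% passed this bound as higher and 1.3% as lower, 2.02% in either direction. Both genes stand in the gene list that the study drew from the same arrays, so their direction here is not independent evidence.

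KDR rose less. Its brightest probe set read 3259, 2935 and 2987 in Hb-eGFP+ arrays, against 2418, 2303 and 2194 in RFP+ control arrays. The groups did not overlap, and the signal was well above background in all 6 arrays. Means were 3060 ± 174 and 2305 ± 112 (SD, n = 3 each), a ratio of 1.33 and a log2 fold change of 0.41 (SE 0.08, 95% interval 0.21 to 0.60, adjusted p = 0.025). This call was lost when any single array other than Hb-eGFP+ replicate 2 was left out (adjusted p 0.051 to 0.081), while the log2 fold change stayed between 0.36 and 0.44. A further KDR probe set above the median signal had overlapping groups, with 276, 249 and 251 in Hb-eGFP+ arrays and 268, 215 and 260.3 in RFP+ control arrays (log2 fold change 0.07, 95% interval -0.18 to 0.32, adjusted p = 0.75). The changes of these KDR probe sets differed by 0.34 on the log2 scale (SE 0.10, exact permutation p = 0.1, chosen after the values had been seen). The other 3 probe sets of KDR were dim, with group means of 21.2 to 50.1 and log2 fold changes of -0.28, -0.12 and 0.22, none called.

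**Figure D2:**
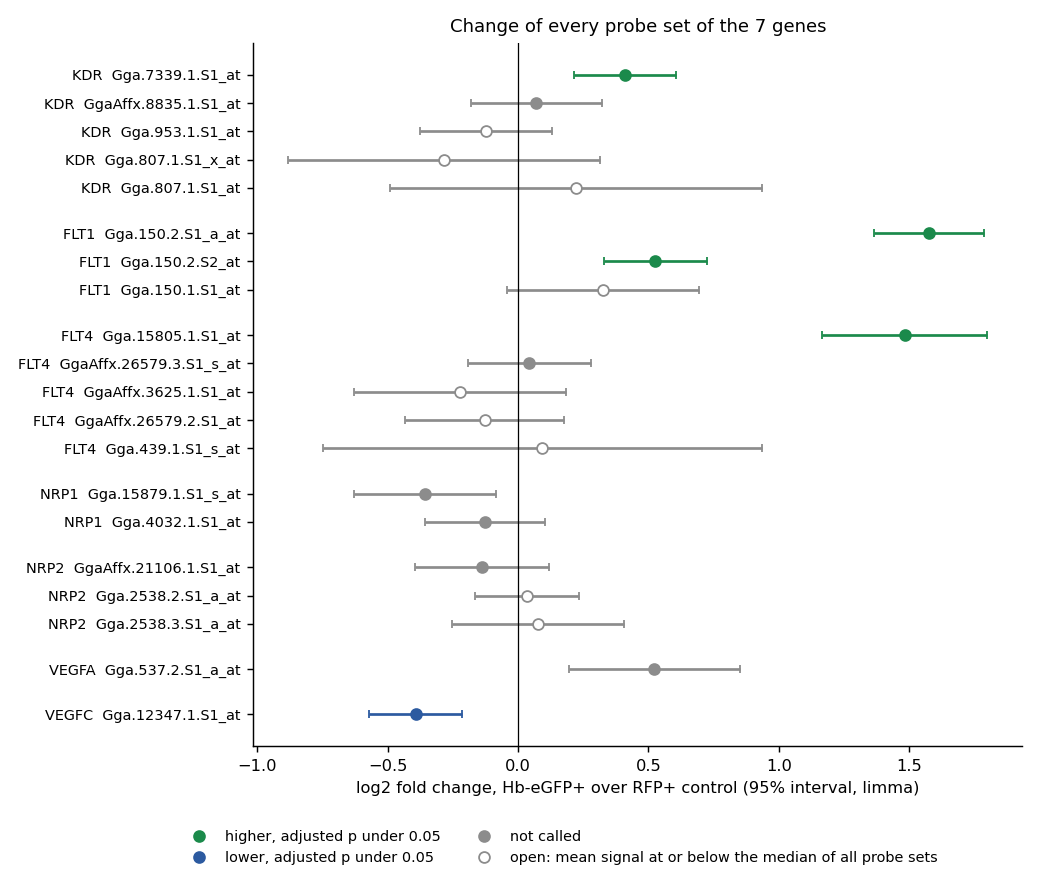
Log2 fold change of Hb-eGFP+ over RFP+ control with its 95% interval from limma for each of the 20 probe sets, grouped by gene; filled points have a mean signal above the median of all probe sets and open points do not. In KDR, FLT1 and FLT4 the brightest probe set had the largest log2 fold change (0.41, 1.58 and 1.48), and all open points have intervals that include 0.

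The changes of the receptors were set against each other within each array, each gene read by its brightest probe set. The next brightest probe sets had log2 fold changes of 0.53 for FLT1, 0.04 for FLT4 and 0.07 for KDR. The differences below therefore hold for the probe sets used and not for every probe set of these genes. The log2 change of FLT1 exceeded that of KDR by 1.17 (SE 0.13), and that of FLT4 exceeded it by 1.08 (SE 0.12). In each of these comparisons the per-array log2 difference between the receptors did not overlap between the groups. The change of FLT1 exceeded that of FLT4 by only 0.09 (SE 0.22, exact permutation p = 0.7), and the sign turned when Hb-eGFP+ replicate 3 (-0.04) or RFP+ control replicate 2 (-0.01) was left out. In all, 5 pairs of members were compared. The exact permutation p was 0.1 for FLT1 against KDR and for FLT4 against KDR, the smallest value that 20 assignments of 3 arrays against 3 allow, and 0.167 after adjustment over the 5 pairs, so no pair could pass 0.05 in this design.

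For the neuropilins no probe set was called. NRP1, the co-receptor best known for binding VEGFA together with KDR, read 2462, 3271 and 2854 in Hb-eGFP+ arrays, against 3864, 3524 and 3551 in RFP+ control arrays. All 3 Hb-eGFP+ arrays lay below all 3 control arrays, but they were spread widely. The log2 fold change was -0.36 (SE 0.12, 95% interval -0.63 to -0.09, adjusted p = 0.11), and it passed 0.05 with an offset of 50 added to the signals (adjusted p = 0.049) and with an intensity trend and robust variances (adjusted p = 0.033). The dimmer NRP1 probe set had 538 ± 29.4 in Hb-eGFP+ and 589 ± 57.2 in RFP+ control (log2 fold change -0.13, adjusted p = 0.49). NRP2, which binds VEGFC and VEGFD with FLT4, read 1286, 1028.5 and 1051 in Hb-eGFP+ arrays and 1265, 1280.0 and 1145 in RFP+ control arrays. One Hb-eGFP+ array was above every control array, so the groups overlapped. The log2 fold change was -0.14 (SE 0.11, 95% interval -0.40 to 0.12, adjusted p = 0.50), and the dim NRP2 probe sets had 0.03 and 0.08. The changes of NRP1 and NRP2 differed by -0.22 (SE 0.22, exact permutation p = 0.6, 0.7 after adjustment over the 5 pairs).

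Of the ligands, VEGFA lay higher and VEGFC lower in all 3 Hb-eGFP+ arrays. VEGFA read 768, 569 and 613 in Hb-eGFP+ arrays, against 514, 411 and 428 in RFP+ control arrays. The groups did not overlap, and in each group 1 array was well above the other two. Means were 650.2 ± 105 and 451 ± 55.5 (SD, n = 3 each), a ratio of 1.44 and a log2 fold change of 0.52 (SE 0.14, 95% interval 0.20 to 0.85). Its adjusted p was 0.063 over all probe sets, which misses the threshold, and 0.032 when each gene was represented by its brightest probe set and the adjustment ran over genes. Over genes, 4 of the 7 were called higher (KDR, FLT1, FLT4 and VEGFA), 1 lower (VEGFC) and 2 were not called (NRP1, adjusted p = 0.058, and NRP2, adjusted p = 0.39), against 9.19% higher and 10.7% lower of all 13051 genes. VEGFC, the main ligand of FLT4, fell. It read 370.1, 369.6 and 391 in Hb-eGFP+ arrays, against 491, 479 and 514 in RFP+ control arrays. The groups were tight and did not overlap. Means were 377 ± 12.4 and 495 ± 17.8 (SD, n = 3 each), a log2 fold change of -0.39 (SE 0.08, 95% interval -0.57 to -0.21, adjusted p = 0.020). The call was lost when any single array other than RFP+ control replicate 2 was left out (adjusted p 0.055 to 0.068). The log2 change of VEGFA exceeded that of VEGFC by 0.92 (SE 0.17, exact permutation p = 0.1, 0.167 after adjustment over the 5 pairs).

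The array also measured 5 of 7 other ligands of the VEGF and platelet-derived growth factor (PDGF) family. VEGFD, the further ligand of FLT4, read 64.3, 61.0 and 66.2 in Hb-eGFP+ arrays, against 198, 213 and 221 in RFP+ control arrays. The Hb-eGFP+ signals lay within the range of the reporter probe sets, so the size of the change (log2 fold change -1.72, SE 0.07, adjusted p over genes = 6.1e-06, as for the list genes below) is not exact. CCBE1, a secreted protein that in mice and zebrafish is needed to activate VEGFC, had 113, 136 and 131 in Hb-eGFP+ arrays, against 567, 491 and 569.5 in RFP+ control arrays (log2 fold change -2.10, SE 0.10, adjusted p = 9.4e-06, by 1 of its 2 probe sets). Both genes were lower in every Hb-eGFP+ array than in any control array. ADAMTS3, the protease that cleaves VEGFC in the same process, had group means of 150.3 in Hb-eGFP+ and 145 in RFP+ control (log2 fold change 0.05, not called). Of these 5 ligand genes 1 was higher and 2 were lower (median log2 fold change -0.23). For this count and for those of the lists below, the shares over all genes were 9.19% higher and 10.7% lower. The PDGF ligands had small log2 fold changes. PDGFB was higher (251 ± 7.44 in Hb-eGFP+ and 209 ± 12.7 in RFP+ control) and PDGFA lower (784 ± 35.8 and 964 ± 14.6). Both were called in the fit over genes but not in that over probe sets. The PDGFB call was lost without any single array except RFP+ control replicate 1 (adjusted p 0.081 to 0.11), and the PDGFA call without Hb-eGFP+ replicate 1 (adjusted p = 0.055), Hb-eGFP+ replicate 2 (0.0503) or RFP+ control replicate 1 (0.067). PDGFC was not called (234 ± 25.9 and 275 ± 9.61). VEGFB and PGF had no matched probe set.

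**Figure D3:**
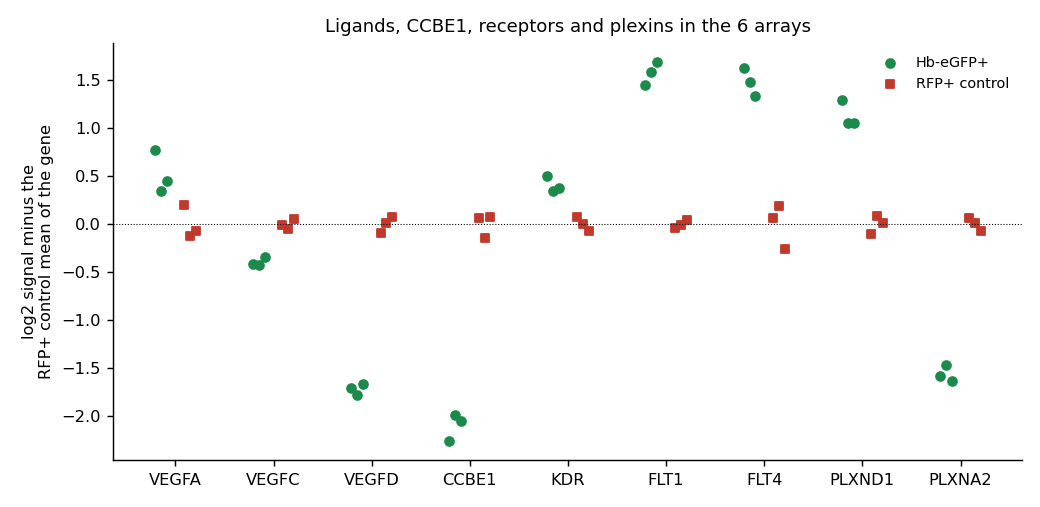
Log2 signal of each array minus the RFP+ control mean of the same gene, for 3 ligands, CCBE1, 3 receptors and the plexins PLXND1 and PLXNA2, by the brightest probe set of each; circles are Hb-eGFP+ arrays and squares RFP+ control arrays. In Hb-eGFP+ arrays VEGFA, KDR, FLT1, FLT4 and PLXND1 lay above the control arrays, whereas VEGFC, VEGFD, CCBE1 and PLXNA2 lay below them.

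Among 6 related receptor tyrosine kinases measured, 1 was higher and 1 lower, with a median log2 fold change of -0.13. TEK, the angiopoietin receptor of endothelium, rose to 582 ± 61.9 in Hb-eGFP+ cells, against 322 ± 27.7 in RFP+ control cells (log2 fold change 0.85, SE 0.10, adjusted p = 0.0010, by 1 of its 2 probe sets). PDGFRB, a receptor of mesenchymal and mural cells, fell to 256 ± 23.2, against 519 ± 3.79 (log2 fold change -1.02, SE 0.08, adjusted p = 0.00012, by 1 of its 2 probe sets). KIT and PDGFRA lie next to KDR on chromosome 4 of the RefSeq annotation of GRCg7b, in that order, and neither was called (log2 fold changes 0.21 and -0.16). SRD5A3, the nearest gene on the other side of KDR, was higher (0.38, adjusted p = 0.013). The nearest genes on either side of FLT1 (POMP and PAN3) and FLT4 (TRIM105 and RNF130) were not called.

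The list of neuropilin partners held class 3 semaphorins, plexins and the adaptor genes GIPC1 and GIPC2. Of its 12 measured genes, 6 fell, 1 rose and 5 were not called, with a median log2 fold change of -0.44, against 0.01 over all genes. The plexin PLXNA2, which transduces semaphorin signals with the neuropilins, read 1158, 1251 and 1117 in Hb-eGFP+ arrays, against 3616, 3511 and 3294 in RFP+ control arrays. This log2 fold change was -1.56 (SE 0.07, adjusted p = 1.0e-05), and all 4 of its probe sets were called lower. PLXNA4 fell to 213 ± 6.05, against 538 ± 24.4 in RFP+ control (-1.33), but only 2 of its 5 probe sets were called lower. The ligand gene SEMA3D fell to 135 ± 3.73, against 277 ± 23.0 (-1.04, 2 of its 3 probe sets called lower). SEMA3A, SEMA3F and SEMA3G were also lower (log2 fold changes -0.62, -0.73 and -0.37), SEMA3G by 1 of its 5 probe sets. The one that rose was PLXND1, a plexin of vascular endothelium that binds SEMA3E without a neuropilin in mice. It read 1336, 1132.5 and 1131 in Hb-eGFP+ arrays, against 508, 577 and 549.9 in RFP+ control arrays (log2 fold change 1.14, SE 0.09, adjusted p = 0.00014, by 1 of its 2 probe sets). SEMA3E itself read near background (26.8 ± 5.21 in Hb-eGFP+ and 31.9 ± 2.17 in RFP+ control, not called).

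Of 24 genes of the receptor complex and its trafficking, 3 rose and 4 fell (12.5% and 16.7%, against 9.19% and 10.7% of all genes). The median log2 fold change was 0.01. RAMP2, which rose, and PTPN6, which fell, were called in the fit over genes but not in that over probe sets. RAMP2 read within the range of the reporter probe sets in both groups (69.2 ± 7.77 in Hb-eGFP+ and 55.1 ± 1.05 in RFP+ control). CDH5, the endothelial cadherin that associates with KDR at cell junctions, rose to 5680 ± 465 in Hb-eGFP+ cells, against 2076 ± 37.8 in RFP+ control cells (log2 fold change 1.45, SE 0.08, adjusted p = 1.8e-05). ITGB3, an integrin subunit that interacts with KDR, rose to 1430 ± 54.7, against 839 ± 45.2 (0.77, 2 of its 3 probe sets called higher). EFNB2, an ephrin that promotes uptake of KDR and FLT4 in mouse endothelium, fell to 29.3 ± 1.35, against 52.5 ± 2.96 (-0.84), both within the range of the reporter probe sets. Of 39 intracellular signalling genes, 8 rose and 4 fell (20.5% and 10.3%, median 0.01). SH2D2A and VAV3, which rose, were likewise called in the fit over genes only, and SH2D2A read near background (36.9 ± 4.33 in Hb-eGFP+ and 27.5 ± 2.14 in RFP+ control). PLCG1, the phospholipase that docks on activated KDR, rose to 2841 ± 275, against 1832 ± 165 (0.63, 2 of its 5 probe sets called higher). The kinase gene FYN rose to 3270 ± 178, against 1947 ± 90.5 (0.75), and the GTPase gene RAC2, known mainly from blood cells, to 172 ± 3.62, against 72.2 ± 8.05 (1.26), where the RFP+ control signal lay within the range of the reporter probe sets, so the size of the change is not exact. PIK3R1, the regulatory subunit of PI3-kinase, fell to 386 ± 18.5, against 631 ± 19.0 (-0.71, 2 of its 4 probe sets called lower). SRC, PTK2 and PRKD1 also fell (log2 fold changes -0.97, -0.41 and -0.46), SRC by 1 of its 7 probe sets. GAB1, PXN and PRKCB also rose (0.38, 0.36 and 0.56).

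Regulators upstream of the receptor and ligand genes were read next. Of 23 transcription factors known to act on VEGF receptor genes, 9 rose (TAL1, LMO2, FLI1, ETS1, ELF1, ELK3, SOX7, SOX18 and HHEX) and 5 fell (SOX17, FOXC1, FOXC2, HEY1 and NR2F2), with a median of 0.17. ETS1 and ELF1 were each called higher by 1 of 6 probe sets. TAL1, a regulator of blood and endothelial progenitors, rose to 6356 ± 286, against 1673 ± 24.2 in RFP+ control (log2 fold change 1.93, SE 0.07, 2 of its 4 probe sets called higher). SOX7 rose to 1637 ± 107, against 346 ± 41.3 (2.25, SE 0.10, by 1 of its 2 probe sets). FOXC2, a forkhead factor of mesoderm and vessels, fell to 102 ± 4.63, against 679 ± 96.1 (-2.73). FOXC1 fell to 24.9 ± 0.442, against 419 ± 90.4 (-4.05), with the Hb-eGFP+ signal near background. Several of these factors, TAL1, LMO2, FLI1, SOX7 and SOX18 among them, are also on the marker lists of blood progenitors and endothelium used to check the sort, so the lists are not separate. The study itself drew TAL1, LMO2, FLI1, SOX7, SOX18, HHEX, SOX17, FOXC2, CDH5, CD34 and CXCR4 from the same arrays, so their direction is not independent evidence. The same holds for OTX2, MSGN1, DLL1 and CDH1, which are on the marker lists of other tissues used to check the sort. Of 14 genes of oxygen sensing, the pathway that induces VEGFA in hypoxia, 2 rose and 3 fell (median -0.23). The other 9 were not called. CA9 (709.8 ± 23.1 in Hb-eGFP+ and 1873 ± 73.0 in RFP+ control, -1.40) and ADM (206 ± 5.25 and 352 ± 7.81, -0.78) fell. EPAS1, the hypoxia-inducible factor of endothelium, rose to 955 ± 117, against 537 ± 38.3 (0.82). HIF1A was not called (log2 fold change -0.28). LDHA rose by 0.41 on the log2 scale, a call that was lost without Hb-eGFP+ replicate 2 (adjusted p = 0.060), Hb-eGFP+ replicate 3 (0.079), RFP+ control replicate 1 (0.071) or RFP+ control replicate 2 (0.074). LDHA, and BNIP3 among the genes that fell, were called in the fit over genes but not in that over probe sets.

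Genes that VEGF induces in cultured endothelium did not move one way. Of 30 measured, 4 rose (NR4A2, EGR1, RCAN1 and KLF2) and 6 fell (DUSP5, PLAU, F3, SPRY1, SPRY2 and CXCR4), with a median log2 fold change of 0.00. NR4A2 and DUSP5 were each called by 1 of 2 probe sets and RCAN1 by 1 of 3. NR4A2 (77.9 ± 5.32 in Hb-eGFP+ and 51.8 ± 1.99 in RFP+ control) and SPRY1 (49.1 ± 3.52 and 67.6 ± 6.37) read within the range of the reporter probe sets. So did RCAN1 in RFP+ control (63.3 ± 6.76). EGR1, an immediate early transcription factor, read 1418, 1397 and 1352 in Hb-eGFP+ arrays, against 364, 401 and 359 in RFP+ control arrays (1.89, SE 0.07, adjusted p = 3.7e-06). KLF2, a factor of endothelium under flow, rose to 244 ± 28.7, against 99.0 ± 5.53 (1.30). The protease gene PLAU fell to 107 ± 7.03, against 341 ± 18.6 (-1.67, by 1 of its 3 probe sets). The chemokine receptor CXCR4 fell to 34.6 ± 3.29, near background, against 461 ± 88.3 (-3.72). Over the 8 lists together, with each gene counted once, 29 of 151 measured genes were higher and 31 lower (19.2% and 20.5%, against 9.19% and 10.7% of all genes), with a median of -0.03. These lists were drawn up with earlier results of the same arrays known, so these shares are a description.

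**Figure D4:**
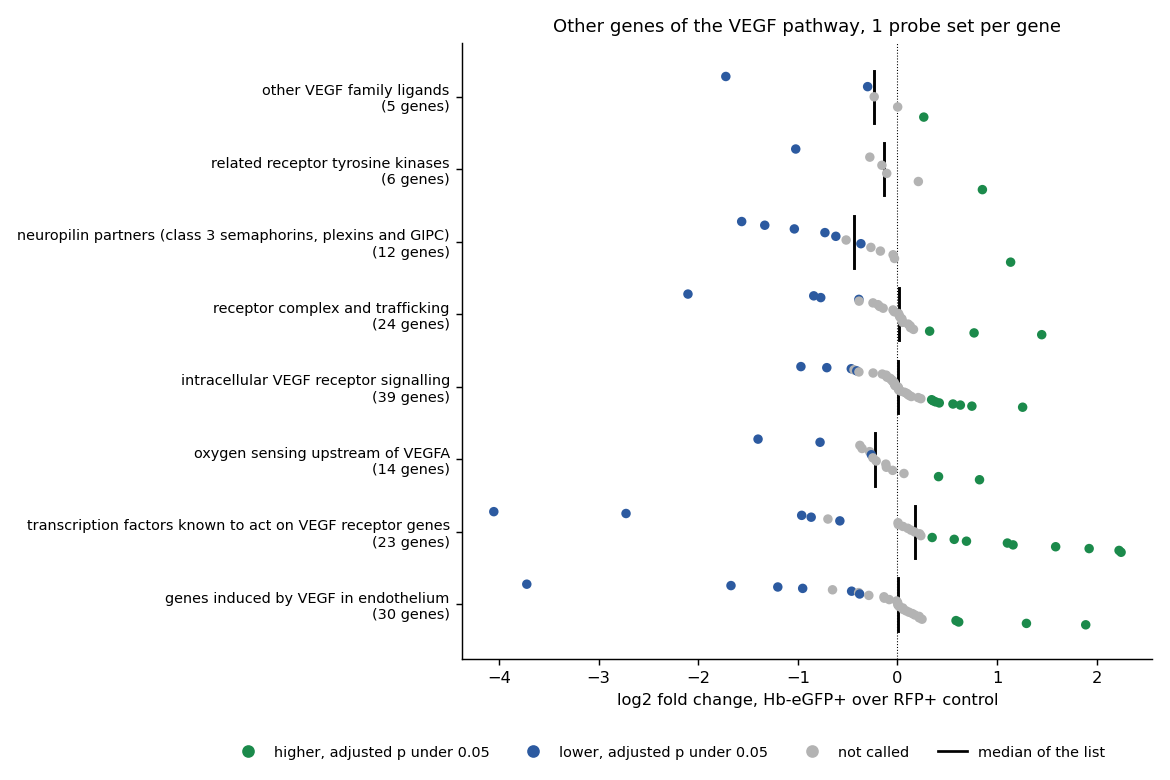
Log2 fold change of Hb-eGFP+ over RFP+ control for each measured gene of the 8 lists, 1 probe set per gene, coloured by call in the fit over genes, with the median of each list as a bar. The neuropilin partners had a median of -0.44, and the transcription factors ran from -4.05 to 2.25.

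The genes whose pattern over the 6 arrays was most like that of each receptor were found as the smallest root mean square distance between log2 signals centred on each gene, among 9513 genes above the median signal. For FLT1 they were CALD1 (distance 0.076), CP, CD200R1A, SOX18 (0.091) and IGSF11 (0.11). For FLT4 they were TDH (0.10), ST3GAL5, CD34 (0.12), RHOBTB3 and RCSD1 (0.13). SOX18, an endothelial transcription factor, and CD34, a surface protein of blood and endothelial progenitors, are on the marker lists used to check the sort. The other genes named for FLT1 and FLT4, the closest ones (CALD1 and TDH) among them, are on none of these lists. FLT4 was rank 61 in likeness to FLT1 (distance 0.22). For KDR the closest were SNX10 (0.021), CDC42SE1, TIPRL, C10orf2 and GALNT5 (0.034), and VEGFA was rank 968. With 6 arrays in 2 groups, such a pattern holds little beyond the difference between the groups.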

How the data were processed

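RNA of 3 Hb-eGFP+ and 3 RFP+ control samples (40 ng total RNA each, two-cycle labelling) was hybridized to 6 arrays. The authors scanned them with GCOS 1.4 (submitters' processing notes), normalized them in dChip and deposited 1 Perfect Match-only model-based intensity per probe set on a linear scale. Normalization method and background subtraction are not given in the sources used here. By the methods of the study both populations were collected in the same sort, which pairs the samples by pool. Which samples shared a pool is not given either, so the main tests took the samples as unpaired. Their p-values measure the spread between these samples. The fragment of the reporter is given as in the sample labels, and a figure legend of the study names another version for the sorted embryos.

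Intensities were not normalized again. The log2 intensities (floor 1) of all 38439 probe sets were fitted with limma (lmFit and eBayes, two-sided, group as the only term, Benjamini-Hochberg threshold 0.05), and again over 13051 genes, each read by its brightest probe set (mean log2 intensity). The study's own bound came from dChip, whose measurement errors are not among the deposited values. In its place the lower 90% Fieller limit of the ratio of means, from the spread between arrays, was held against the same 1.7. Pairs of members were compared by exact permutation over 20 assignments. The calculations were tested on simulated data. Precision is limited by the number of arrays. Symbols came from the platform annotation, updated through gene IDs to RefSeq of GRCg7b. No sequence was used.

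Members and lists were chosen with earlier results of these data known. Named are all member probe sets, the 4 list genes that had the lowest adjusted p in each list and the first of each direction, the 5 genes most like each receptor, and the sort markers. ADAMTS3, HIF1A, SEMA3A, SEMA3E, SEMA3F, SEMA3G, the nearest neighbours of the receptor genes and further called list genes fall outside this rule. They were named once their values had been seen, and not every called list gene is named. As alternatives, arrays were quantile normalized or median centred, dim probe sets were removed, 50 was added before log2, variances were robust with an intensity trend, the replicate number served as a block, and arrays were left out in turn. Other intervals and other ways to represent a gene were also tried. Models were fitted in limma 3.58.1 under R 4.3.3, and the remaining steps used pandas 2.3.3 and NumPy 2.4.6 under Python 3.11.15.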

Additional observations from a re-analysis of the deposited data

How the results depend on the processing

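FLT1 (both brighter probe sets) and FLT4 (its brightest) kept their calls under every alternative run, and 2 members passed the lower bound of the ratio under every alternative. The count of member probe sets called higher was 4 and ran from 3 to 5. The count called lower was 1 and became 2 with an offset of 50 and with trend and robust variances, 0 with the replicate block, and 0 to 1 when each array was left out. VEGFA was called under 7 of its alternatives, among them quantile normalization and removal of dim probe sets (adjusted p over all alternatives 0.016 to 0.16). When single arrays were left out, the log2 difference between the changes of FLT1 and FLT4 ran from -0.040 to 0.24, and the log2 fold change also turned its sign in 6 uncalled probe sets: 3 of KDR (-0.029 to 0.13, -0.48 to 0.033 and -0.077 to 0.49), 2 of FLT4 (-0.019 to 0.13 and -0.16 to 0.47) and 1 of NRP2 (-0.013 to 0.073). Samples of the same number had r of deviations from the group mean of -0.12, -0.05 and 0.10, against -0.15 to 0.19 for samples of other numbers. With 3 arrays per group these values cannot decide whether the numbers pair the samples. With the replicate number as a block the adjusted p was 0.061 for KDR, 0.064 for VEGFC and 0.031 for VEGFA. The block gave 900 probe sets higher and 1248 lower over the array, against 1545 and 1941 without it, and leaving out 1 array gave 811 to 1296 higher and 1102 to 1721 lower. Over genes, 1200 were higher and 1396 lower, against 742 to 1072 and 921 to 1293 with 1 array left out. Counts of pathway genes stayed within 1.5 times (23 to 30 higher, 27 to 32 lower).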
